A study of Mus musculus with 4 samples.

Results

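Genes of DNA replication and of mitosis were examined in the stromal vascular fraction (SVF) of mouse inguinal white adipose tissue (iWAT), the cell pellet left when floating adipocytes are removed from digested fat. RNA-seq counts were analysed from 2 libraries of mice treated with a medicinal herb extract (MHE) and 2 libraries of mice treated with phosphate-buffered saline (PBS), which the labels call biological replicates. The labels state neither the strain, age, sex and diet of the animals nor the composition, dose and duration of the extract. The libraries held 31052064 and 27161882 counts in MHE replicates 1 and 2, and 27695144 and 33391075 counts in PBS replicates 1 and 2.

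The set holds 48 genes, picked by symbol for their known part in DNA replication or mitosis, of 26214 symbols in the files. It was divided into 21 genes of S phase (origin licensing, the replication fork, nucleotide supply and the E2F and cyclin E system that switches them on), 24 genes of G2 and mitosis (G2/M), and the 3 D-type cyclins. All 48 had counts in every library and all 48 passed the filter on low counts, which 16196 genes passed. Placing a gene in S phase or G2/M follows its usual peak in cycling cells, and Ccna2, which serves both, was placed with G2/M.

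A cell commits to division in G1, when D-type cyclins and their kinases phosphorylate the retinoblastoma protein and release E2F factors. E2F factors then switch on the genes that license origins, copy DNA and make deoxynucleotides, and later the FOXM1 and DREAM systems switch on the genes that build the spindle and divide the cell. In resting fat few cells cycle; those that do include adipocyte progenitors, endothelial cells, macrophages and, where lymphoid tissue is present, activated lymphocytes. In a bulk sample, fewer cycling cells and less RNA per cycling cell cannot be told apart.

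The promoter sequences of 4 members are shown because they carry the elements by which S phase and G2/M genes are usually told apart. They are the 250 bases upstream of the RefSeq start (assembly GRCm38.p6, the patch release of the mouse assembly known as mm10), written 5′ to 3′ on the gene's strand. In Mcm6 (chr1:128359706-128359955, minus strand) and Mcm5 (chr8:75109259-75109508, plus strand), helicase subunit genes, the capitals mark E2F-type words. In Mki67 (chr7:135716380-135716629, minus strand), which encodes the proliferation antigen Ki-67, and Top2a (chr11:99024190-99024439, minus strand), which encodes the topoisomerase that untangles mitotic chromosomes, they mark the cell cycle homology region (CHR) word.

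Mcm6: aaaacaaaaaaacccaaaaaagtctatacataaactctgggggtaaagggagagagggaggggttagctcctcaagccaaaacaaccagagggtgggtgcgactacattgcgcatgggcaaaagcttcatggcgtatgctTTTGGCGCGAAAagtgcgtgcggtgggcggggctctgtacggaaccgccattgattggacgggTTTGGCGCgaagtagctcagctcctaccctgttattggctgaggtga
Mcm5: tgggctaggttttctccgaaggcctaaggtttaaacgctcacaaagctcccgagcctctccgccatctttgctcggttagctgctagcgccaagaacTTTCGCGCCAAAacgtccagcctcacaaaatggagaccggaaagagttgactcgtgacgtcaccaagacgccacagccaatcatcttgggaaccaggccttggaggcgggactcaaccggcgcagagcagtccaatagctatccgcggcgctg
Mki67: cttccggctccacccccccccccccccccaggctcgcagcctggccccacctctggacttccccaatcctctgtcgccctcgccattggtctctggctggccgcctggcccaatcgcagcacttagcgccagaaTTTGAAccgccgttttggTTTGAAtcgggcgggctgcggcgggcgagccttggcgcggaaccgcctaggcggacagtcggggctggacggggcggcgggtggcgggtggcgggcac
Top2a: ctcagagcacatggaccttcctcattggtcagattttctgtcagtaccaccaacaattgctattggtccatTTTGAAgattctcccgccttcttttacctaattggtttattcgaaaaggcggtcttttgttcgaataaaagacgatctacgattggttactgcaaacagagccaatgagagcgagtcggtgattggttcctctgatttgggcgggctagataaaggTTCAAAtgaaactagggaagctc

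The E2F words searched were TTTCGCGC, TTTGGCGC, TTTCCCGC and TTTGCCGC, and the CHR word was TTTGAA, each on both strands, so a word on the other strand appears as its reverse complement. In Mcm6 the words began 110, 106 and 47 bases upstream of the start and in Mcm5 153 and 149 bases upstream; the pair at 110 and 106 and the pair at 153 and 149 each overlap, on opposite strands, and so form 1 run of capitals. In Mki67 they began 116 and 98 bases upstream and in Top2a 179 and 23 bases upstream. Of the 48 members, 37 had an entry in the RefSeq promoter table. An E2F word lay in 6 of 17 S phase promoters (35.3%) and in 1 of 19 G2/M promoters (5.26%), against 1.92% of 27018 promoters of the same length. The CHR word lay in 1 of 17 S phase promoters (5.88%) and in 7 of 19 G2/M promoters (36.8%), against 16.3% of all. CCAAT, the word bound by NF-Y, lay in 12 of 17 (70.6%) and 17 of 19 (89.5%), against 34.5% of all. These are matches of letters in a window and describe the sequences, not binding.

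Replication and mitosis genes were mostly higher with MHE than with PBS, but few passed the test over all genes. The licensing helicase genes Mcm2 to Mcm7 were higher in both MHE libraries than in either PBS library, as were 33.1% of all genes tested. Of them Mcm4 passed the test over all genes. Among the transcription factors that drive these genes, E2f1 fell with MHE, while E2f2 was several times higher at an adjusted p of 0.0683. Of the G2/M genes none passed by edgeR (DESeq2 called Top2a). Both MHE libraries lay above both PBS libraries in 12 of 24, against 33.1% of all genes tested. The other 12 overlapped between the groups, against 6153 of all 16196 genes tested. MHE replicate 1 was above PBS replicate 1 in 12 of 24.

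Of the 48 members, 1 passed higher (Mcm4) and 1 passed lower (E2f1) in edgeR's quasi-likelihood test with Benjamini-Hochberg adjustment over all 16196 genes, where 3.97% of all genes tested passed higher, 0.963% lower and 4.93% in either direction. The members' share of calls was thus close to that of all genes. At an unadjusted p under 0.05, 13 members were higher and 1 was lower, against 16.7% and 11.8% of all genes tested, 28.6% in either direction. Both MHE libraries lay above both PBS libraries in 27 members and below them in 2, against 33.1% and 28.9% of all genes tested. The log2 fold change, MHE minus PBS, was positive in 45 of 48 members with a median of 0.52, and positive in 48.8% of all genes with a median of -0.02. Members called by other settings numbered 2 with median-of-ratios factors (5.01% of all genes), 1 with library totals alone (5.85%), 10 with DESeq2 (19.3%), 2 with limma-voom (7%), 2 with no filter on low counts (4.18%), 2 with a stricter filter (6.61%) and 2 with the replicate number as a block (4.72%). Without MHE replicate 1 or without MHE replicate 2, no member and no gene of the whole table passed by edgeR; at an unadjusted p under 0.05 there were 8 members in each case, of 2352 and 2596 genes. Without PBS replicate 1, 16 members passed higher and 1 lower, where 16.5% of genes passed, and without PBS replicate 2, 4 passed higher and 1 lower, where 14.6% passed.

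**Figure D1:**
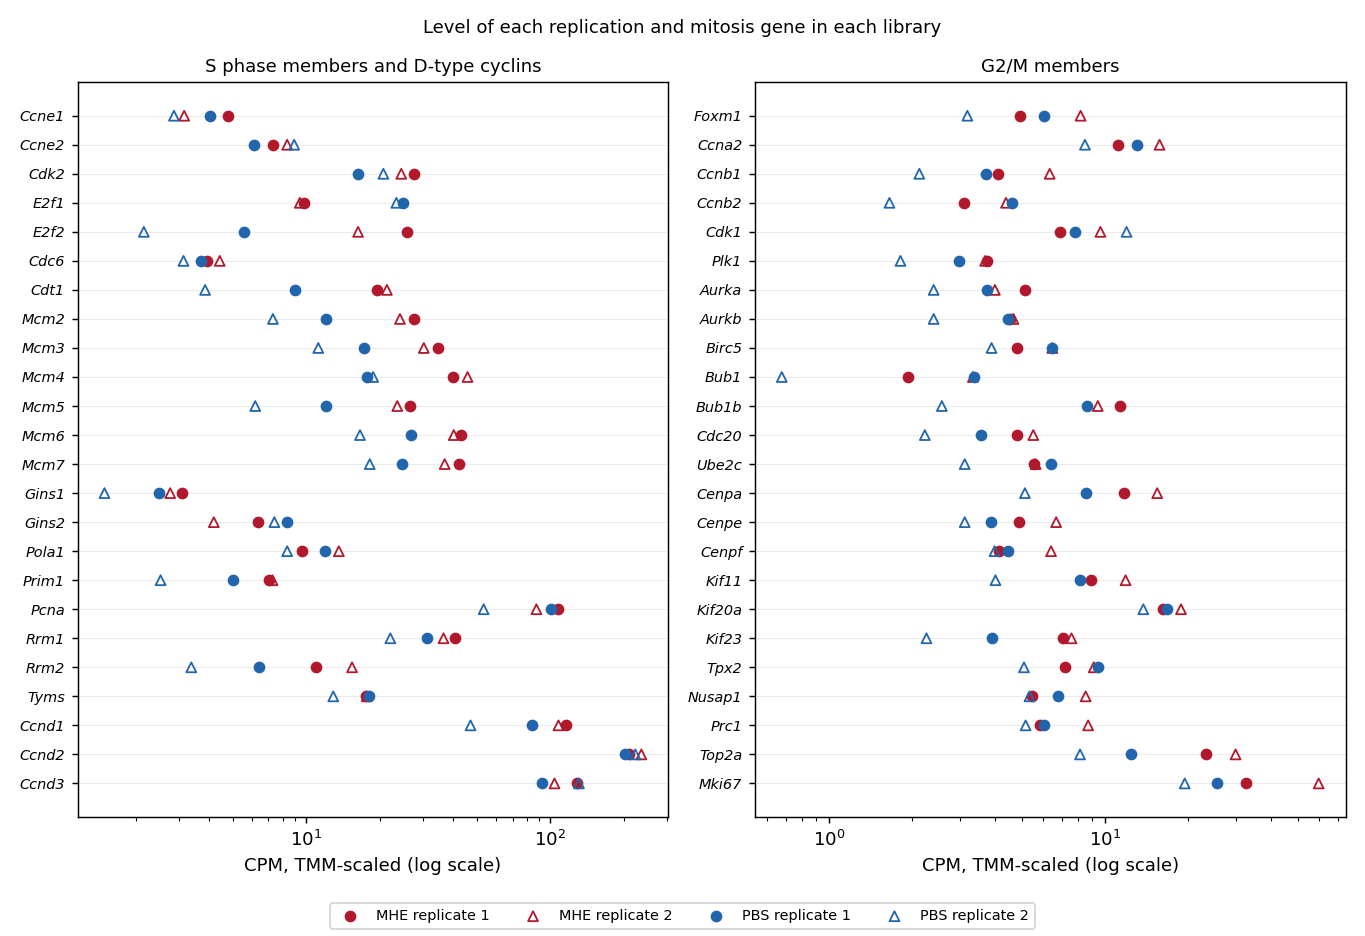
CPM (TMM-scaled, log axis) of each of the 48 members in the 4 libraries, red for MHE and blue for PBS, with a filled circle for replicate 1 and an open triangle for replicate 2. The 6 MCM genes show both red symbols right of both blue ones, E2f1 shows the reverse, and in many G2/M genes the filled blue circle lies among the red symbols.

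The MCM2-7 proteins form the ring-shaped helicase that is loaded onto origins in G1 and unwinds DNA in S phase. All 6 subunit genes were higher in both MHE libraries than in either PBS library, as were 33.1% of all genes tested. Levels are given in CPM, counts scaled to a common library total by edgeR's TMM method. Gene positions are those of GENCODE M21 on mm10. Mcm4 (chromosome 16, 15623897 to 15637400) stood at 40.1 and 45.8 CPM with MHE, against 17.7 and 18.8 CPM with PBS, a log2 fold change of 1.23 ± 0.19 (SE; adjusted p = 0.0418). Its PBS libraries lay closer together than those of the other 5 genes. Mcm4 did not pass when either MHE library was left out, nor did any other gene, so this does not set it apart.

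The other 5 subunit genes were also higher with MHE but did not pass the test over all genes. Mcm2 had 27.5 and 24.2 CPM with MHE, against 12.0 and 7.30 CPM with PBS (log2 fold change 1.42 ± 0.31, adjusted p = 0.067). Mcm5 had 26.6 and 23.6 CPM with MHE, against 12.0 and 6.18 CPM with PBS (1.47 ± 0.37, adjusted p = 0.0846). Mcm3 had 34.6 and 30.3 CPM with MHE, against 17.2 and 11.2 CPM with PBS (1.19 ± 0.28, adjusted p = 0.0753). In each of these genes PBS replicate 2 was the lowest library. Mcm6 had 43.0 and 40.2 CPM with MHE, against 26.9 and 16.6 CPM with PBS (0.94 ± 0.28, adjusted p = 0.118). Mcm7 had 42.1 and 36.9 CPM with MHE, against 24.7 and 18.2 CPM with PBS (0.88 ± 0.23, adjusted p = 0.0942). Over the 11 other settings tried, the log2 fold change of the 6 genes stayed positive, between 0.64 and 2.00.

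Per kilobase of exon, the helicase subunits, which assemble in equal numbers, were not at equal RNA levels. Mcm5 was the lowest of the 6 in every library, at 7.71 and 6.81 CPM per kb with MHE, against 3.47 and 1.79 CPM per kb with PBS, and Mcm2 was next in every library. Mcm7 was the highest in 3 of 4 libraries, at 14.2 and 12.5 CPM per kb with MHE, against 8.32 and 6.16 CPM per kb with PBS, and in MHE replicate 2 Mcm4 was above it at 12.8 CPM per kb. Mcm7 has a pseudogene copy that is 97.7% identical over 2157 bases. Ap4m1, on the other strand, shares 7.25% of the exon bases of Mcm7. Some reads of Mcm7 may therefore be misassigned, which was not tested.

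Cdt1 and Cdc6 load the helicase onto origins. Cdt1 (chromosome 8, 122568015 to 122573554) had 19.5 and 21.4 CPM with MHE, against 9.02 and 3.85 CPM with PBS, a log2 fold change of 1.67 ± 0.44 (adjusted p = 0.0952). It passed when either PBS library was left out. Cdc6 had 3.91 and 4.42 CPM with MHE, against 3.72 and 3.14 CPM with PBS (0.28 ± 0.36). In both genes the MHE libraries lay above both PBS libraries, as in 33.1% of all genes tested.

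The E2F genes gave the largest differences of the set in each direction. E2F1 is the activator best known for starting S phase, and in mice it also takes part in fat cell differentiation. E2f1 (chromosome 2, 154559407 to 154569892) had 9.75 and 9.41 CPM with MHE, against 24.9 and 23.4 CPM with PBS, and fell by 1.33 on the log2 scale (SE 0.21, adjusted p = 0.0409). The replicates of each group lay close together and far from the other group. E2F2, a sister activator that in mice restrains T cell proliferation, went the other way. E2f2 (chromosome 4, 136172394 to 136196057) had 25.9 and 16.3 CPM with MHE, against 5.56 and 2.16 CPM with PBS, a log2 fold change of 2.45 ± 0.54 (adjusted p = 0.0683). Its log2 fold change was 3.27 when PBS replicate 1 was left out and 1.94 when PBS replicate 2 was. E2f2 passed by DESeq2 (adjusted p = 0.000261), where 19.3% of all genes passed. E2f1 had an adjusted p of 0.0564 with library totals alone as scaling. It did not pass when either MHE library was left out, nor did any other gene. Its log2 fold change lay between -1.37 and -1.17 over all 11 settings.

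The rest of the family and its partners were taken from a list of 17 G1 kinases and E2F and retinoblastoma genes, all of them tested. None passed in either direction by edgeR, where 3.97% of all genes tested passed higher and 0.963% lower. At an unadjusted p under 0.05, 2 were higher and 2 lower, against 16.7% and 11.8% of all genes tested. Both MHE libraries lay above both PBS libraries in 5 of the 17 and below them in 3, against 33.1% and 28.9% of all genes tested. DESeq2 and limma-voom each called 1 higher and none lower, where they called 19.3% and 7% of all genes in either direction. The repressor gene E2f4 had 40.8 and 36.7 CPM with MHE, against 19.9 and 19.3 CPM with PBS (log2 fold change 0.98 ± 0.19, adjusted p = 0.0548). Rbl1, which encodes the pocket protein p107, had 33.3 and 30.1 CPM with MHE, against 17.1 and 19.9 CPM with PBS (0.78 ± 0.20, adjusted p = 0.0918). Rb1, the retinoblastoma gene, had 49.6 and 54.8 CPM with MHE, against 72.0 and 98.2 CPM with PBS (-0.71 ± 0.24, adjusted p = 0.137), and Tfdp2, an E2F partner, had a log2 fold change of -0.89 ± 0.29 (adjusted p = 0.132). Groups did not overlap in these 4 genes. E2f3, E2f5, E2f7 and E2f8, which lie outside the rule for naming genes and are given to complete the family, overlapped between groups, and E2f6, given for the same reason, was lower in both MHE libraries (-0.32 ± 0.19).

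**Figure D2:**
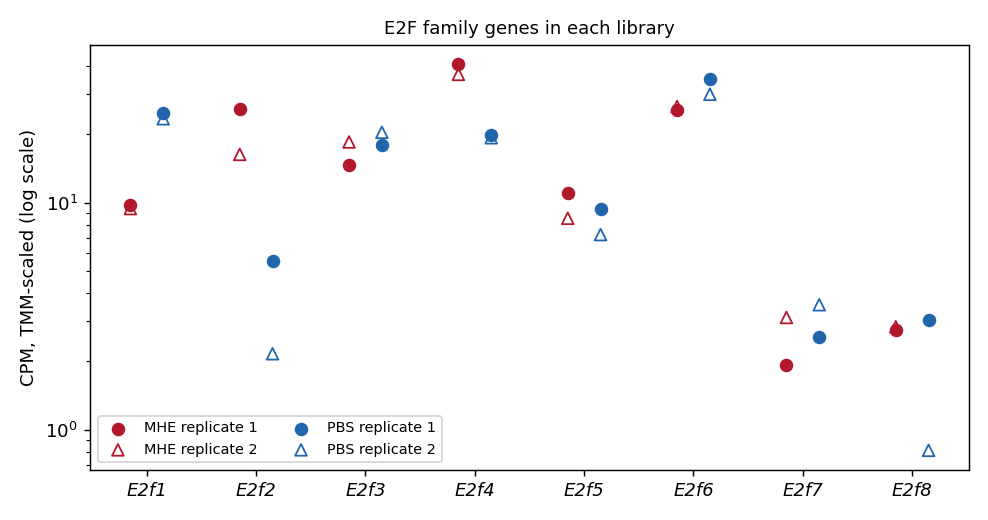
CPM (log axis) of the 8 E2F genes in each library, MHE left and PBS right within each gene, with a filled circle for replicate 1 and an open triangle for replicate 2. E2f1 lies lower with MHE, E2f2 and E2f4 lie higher, and the PBS libraries of E2f2 stand at 5.56 and 2.16 CPM.

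At the G1 to S boundary, cyclin E and its kinase CDK2 fire licensed origins. Cdk2 had 27.7 and 24.5 CPM with MHE, against 16.3 and 20.7 CPM with PBS (log2 fold change 0.50 ± 0.22, adjusted p = 0.219). Ccne1 and Ccne2, the cyclin E genes, were low, between 2.87 and 8.92 CPM, and overlapped between the groups. Ccne2 shares 17.4% of its exon bases with Ints8 on the other strand.

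GINS1 and GINS2 belong to the complex that turns the loaded MCM ring into a working helicase. Gins1 had 3.10 and 2.77 CPM with MHE, against 2.49 and 1.49 CPM with PBS (0.56 ± 0.47). Gins2 had 6.32 and 4.18 CPM with MHE, against 8.37 and 7.40 CPM with PBS (-0.59 ± 0.34). However, 67.3% of its exon bases lie within Gse1 on the other strand. Reads from those bases cannot be assigned unless counting was by strand, which is not given, so its level is uncertain. Prim1, the primase catalytic subunit, had 7.01 and 7.27 CPM with MHE, against 5.02 and 2.53 CPM with PBS (0.92 ± 0.43, adjusted p = 0.228), whereas Pola1, its polymerase alpha partner, overlapped between the groups (0.20 ± 0.32). Pcna, the sliding clamp, was the most abundant S phase member by CPM and per kilobase, with 107 and 87.7 CPM with MHE, against 101 and 53.3 CPM with PBS (0.34 ± 0.35). PBS replicate 1 was inside the MHE range. Pcna has a pseudogene copy that is 99.2% identical over 781 bases. Some of its reads may therefore be misassigned, which was not tested.

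Among the enzymes of deoxynucleotide supply, Rrm2, the regulatory subunit of ribonucleotide reductase, had 11.0 and 15.4 CPM with MHE, against 6.39 and 3.38 CPM with PBS (1.44 ± 0.41, adjusted p = 0.106). Its catalytic partner Rrm1 had 40.5 and 36.5 CPM with MHE, against 31.2 and 22.1 CPM with PBS (0.53 ± 0.24, adjusted p = 0.219). In both genes the MHE libraries lay above both PBS libraries, as in 33.1% of all genes tested. Tyms, thymidylate synthase, had 17.5 and 17.7 CPM with MHE, against 18.0 and 12.9 CPM with PBS (0.19 ± 0.25), and overlapped.

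**Figure D3:**
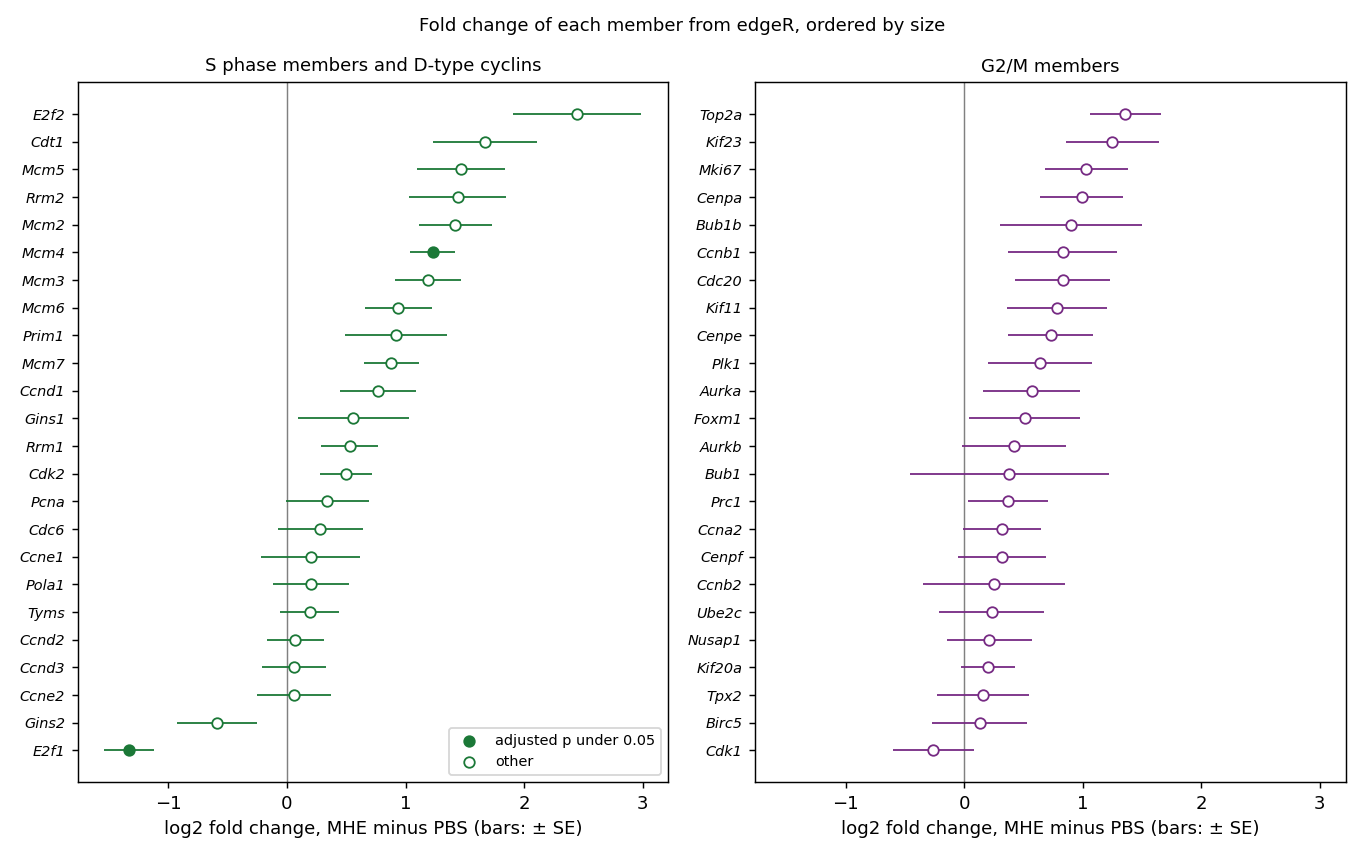
Log2 fold change of each member, MHE minus PBS, with bars of 1 SE, ordered by size, S phase members and D-type cyclins on the left and G2/M members on the right; filled points have an adjusted p under 0.05. Mcm4 at 1.23 and E2f1 at -1.33 are the filled points, and Cdk1 at -0.26 is the negative G2/M member.

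Of the 24 G2/M members, none passed in either direction by edgeR, and 4 were higher and none lower at an unadjusted p under 0.05, against 16.7% and 11.8% of all genes. DESeq2 called Top2a and limma-voom called no G2/M member. Both MHE libraries lay above both PBS libraries in 12 of the 24 and the other 12 overlapped, where 33.1% of all genes lay above and 28.9% below.

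Among them the genes of the mitotic chromosome are described first. Top2a (chromosome 11, 98992943 to 99024189) had 23.3 and 29.8 CPM with MHE, against 12.5 and 8.14 CPM with PBS, a log2 fold change of 1.36 ± 0.30 (adjusted p = 0.0686). Mki67 (chromosome 7, 135689784 to 135716361) had 32.6 and 59.6 CPM with MHE, against 25.5 and 19.5 CPM with PBS, a log2 fold change of 1.03 ± 0.35 (adjusted p = 0.139). Groups did not overlap in either gene, but Mki67 in MHE replicate 2 was far above MHE replicate 1, and its log2 fold change was 0.55 without MHE replicate 2. Top2a passed without PBS replicate 1.

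Cenpa, the histone H3 variant that marks centromeres, had 11.7 and 15.5 CPM with MHE, against 8.55 and 5.14 CPM with PBS (0.99 ± 0.35, adjusted p = 0.15). Cenpe, a kinetochore motor, had 4.91 and 6.67 CPM with MHE, against 3.86 and 3.11 CPM with PBS (0.73 ± 0.36, adjusted p = 0.25). Neither overlapped between the groups. Cenpf, a kinetochore protein of late G2, overlapped (0.32 ± 0.37).

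Among the spindle motors and midzone genes, Kif23, a motor of the central spindle needed for cytokinesis, had 7.04 and 7.58 CPM with MHE, against 3.90 and 2.26 CPM with PBS (1.25 ± 0.39, adjusted p = 0.126). Kif11, the motor that pushes spindle poles apart, had 8.94 and 11.9 CPM with MHE, against 8.12 and 4.02 CPM with PBS (0.78 ± 0.42). The other 4 of this class, Kif20a, Tpx2, Nusap1 and Prc1, had log2 fold changes between 0.16 and 0.37 and overlapped. Kif20a shares 29.3% of its exon bases with Cdc23 on the other strand.

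Of the checkpoint and anaphase genes, Bub1b, which encodes the checkpoint kinase BUBR1, had 11.4 and 9.44 CPM with MHE, against 8.66 and 2.57 CPM with PBS (0.90 ± 0.60). Cdc20, the activator of the anaphase-promoting complex, had 4.82 and 5.51 CPM with MHE, against 3.57 and 2.23 CPM with PBS (0.83 ± 0.40, adjusted p = 0.244). Bub1 had 1.93 and 3.33 CPM with MHE, against 3.36 and 0.676 CPM with PBS, and overlapped. Ube2c, the ubiquitin-conjugating enzyme of that complex, overlapped (0.23 ± 0.44).

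The mitotic kinases Plk1, Aurka and Aurkb drive entry into mitosis, spindle assembly and chromosome segregation. Their log2 fold changes were 0.64 ± 0.44, 0.57 ± 0.41 and 0.42 ± 0.44, at levels between 1.82 and 5.15 CPM. Both MHE libraries lay above both PBS libraries in each, as in 33.1% of all genes tested. In Aurkb the nearest libraries were MHE replicate 1 at 4.52 CPM and PBS replicate 1 at 4.48 CPM. Birc5 (survivin), the partner of Aurora B, overlapped (0.13 ± 0.40). The genes of the A- and B-type cyclins, of their kinase CDK1 and of the transcription factor FOXM1 form the engine of mitotic entry. In 1 of these 5 genes, Ccnb1, both MHE libraries lay above both PBS libraries, against 33.1% of all genes tested. Ccnb1 had 4.09 and 6.32 CPM with MHE, against 3.72 and 2.13 CPM with PBS (0.83 ± 0.46). Cdk1 had 6.89 and 9.65 CPM with MHE, against 7.83 and 12.0 CPM with PBS (-0.26 ± 0.34), with PBS replicate 2 the highest library. Ccna2, Ccnb2 and Foxm1 overlapped, at 0.32 ± 0.33, 0.25 ± 0.60 and 0.51 ± 0.47. Ccnb1 has several pseudogene copies at 95% identity or more, so its level is uncertain.

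The D-type cyclins, which couple growth signals to the cycle and are made by resting cells too, stood above the mitotic cyclins in CPM per kb of exon in every library. Ccnd1 (chromosome 7, 144929931 to 144939925) had 116 and 108 CPM with MHE, against 83.9 and 47.1 CPM with PBS (0.77 ± 0.32, adjusted p = 0.194), and passed without PBS replicate 1. Ccnd2 had 210 and 236 CPM with MHE, against 203 and 223 CPM with PBS (0.07 ± 0.24). Ccnd3 had 129 and 104 CPM with MHE, against 92.8 and 131 CPM with PBS (0.06 ± 0.27). Per kilobase, Ccnd3 was the highest of the 3 in every library, between 37.9 and 53.6 CPM per kb. Ccnd1 shares 23.4% of its exon bases with a gene on the other strand and Ccnd3 has a pseudogene copy.

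S phase and G2/M genes were then set side by side. Summed over its members, the S phase group stood at 515 and 474 CPM with MHE, against 364 and 255 CPM with PBS, and the G2/M group at 199 and 270 CPM with MHE, against 181 and 122 CPM with PBS. The S phase mean was 494 ± 29.6 CPM with MHE and 309 ± 77.0 CPM with PBS (1.60-fold; SD, n = 2 each). The G2/M mean was 235 ± 49.7 CPM with MHE and 152 ± 41.5 CPM with PBS (1.55-fold; SD, n = 2 each). MHE libraries lay above PBS libraries in both sums. The nearest G2/M sums were those of MHE replicate 1 and PBS replicate 1.

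The median log2 fold change was 0.56 over the 21 S phase members and 0.46 over the 24 G2/M members, against -0.02 over all genes. Their difference, G2/M minus S phase, was -0.10. The pooled SD between replicates of the same difference in per-library median log2 CPM was larger, at 0.36. The difference in median log2 fold change was 0.15 without MHE replicate 1 and -0.33 without MHE replicate 2. S phase members were spread more widely, from -1.33 to 2.45, than G2/M members, from -0.26 to 1.36. Non-overlap with MHE higher occurred in 14 of 21 S phase and 12 of 24 G2/M members, and with MHE lower in 2 and 0, against 33.1% and 28.9% of all genes tested. Without PBS replicate 1 the medians were 0.96 and 0.97, and without PBS replicate 2 the G2/M median was 0.26.

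**Figure D4:**
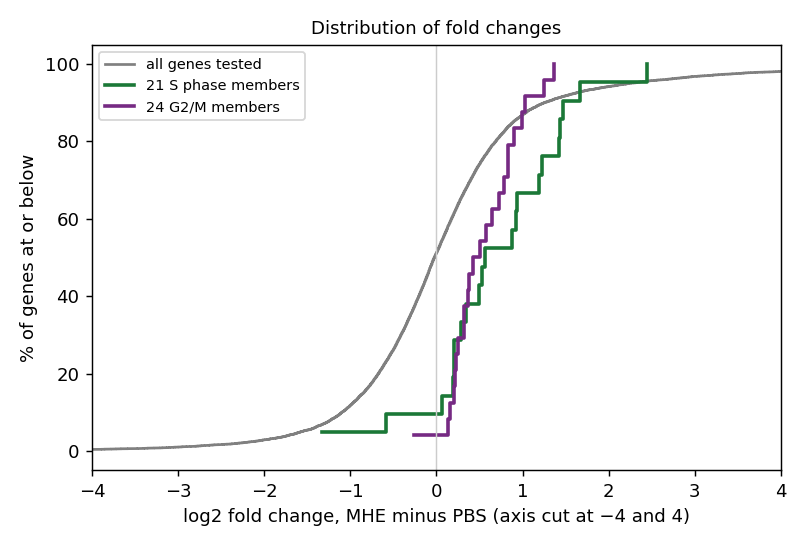
Cumulative share of genes (y axis, percent) at or below a given log2 fold change, MHE minus PBS (x axis), for all genes tested, the 21 S phase members and the 24 G2/M members. Medians lie at -0.02 for all genes, 0.56 for S phase and 0.46 for G2/M, and the S phase curve reaches further in both directions.

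The balance between the phases did not separate the groups. Counts of G2/M members came to 38.7% and 57.0% of those of S phase members in MHE replicates 1 and 2, against 49.7% and 47.9% in PBS replicates 1 and 2. Both PBS values lay between the MHE values. Between the MHE libraries, replicate 2 was higher in 21 of 24 G2/M members (median of replicate 1 minus replicate 2 -0.41 in log2 CPM) but in 8 of 21 S phase members (median 0.15), while over all genes the median was -0.01. Between the PBS libraries, replicate 1 was higher in 23 of 24 G2/M members (median 0.70) and in 18 of 21 S phase members (median 0.51), against 51.0% of all genes. Set library against library, MHE replicate 1 was above PBS replicate 1 in 17 of 21 S phase but 12 of 24 G2/M members, and above PBS replicate 2 in 18 and 23. MHE replicate 2 was above PBS replicate 1 in 16 and 20, and above PBS replicate 2 in 18 and 23.

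**Figure D5:**
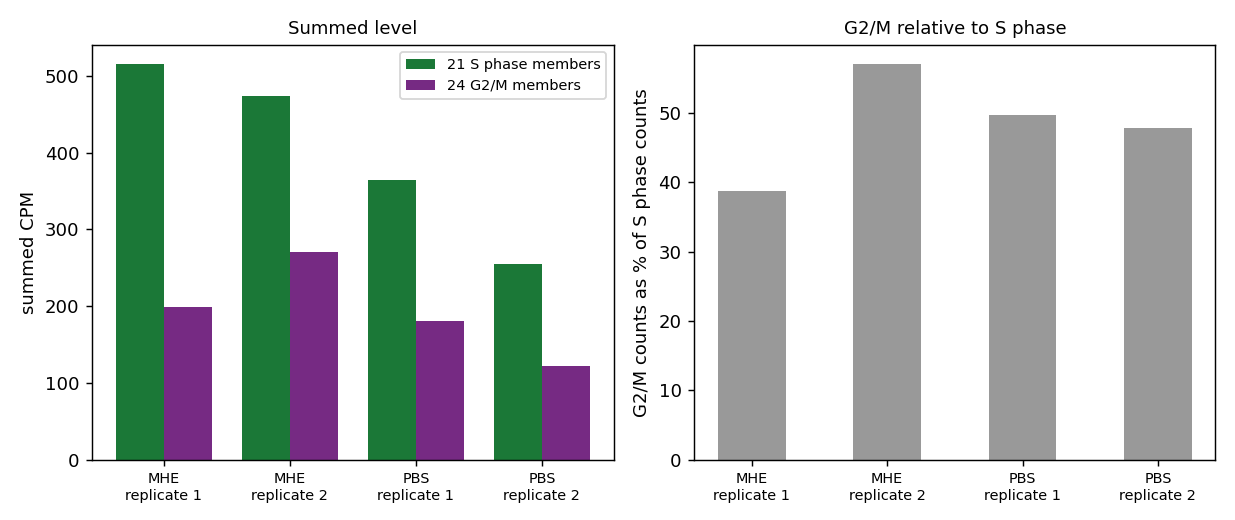
Left, summed CPM of the 21 S phase and 24 G2/M members in each library; right, counts of G2/M members as a percentage of those of S phase members. Sums are highest in the MHE libraries, and the percentage is 38.7 in MHE replicate 1 and 57.0 in MHE replicate 2, on either side of the PBS libraries.

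Other genes of the same processes gave the following counts. Of 41 further S phase genes, all tested, 4 passed higher and none lower by edgeR (14 and 0 at an unadjusted p under 0.05), with a median log2 fold change of 0.55. Of all genes, 3.97% passed higher and 0.963% lower, and 16.7% and 11.8% did so at the unadjusted threshold. DESeq2 called 9 higher and limma-voom 4, and neither called any lower. Over all genes, DESeq2 called 19.3% and limma-voom 7% in either direction. Pold1, the catalytic subunit of polymerase delta, had 28.0 and 26.3 CPM with MHE, against 8.66 and 6.59 CPM with PBS (log2 fold change 1.83 ± 0.24, adjusted p = 0.0307). Dnmt1, the maintenance DNA methyltransferase, had 60.6 and 57.8 CPM with MHE, against 25.8 and 22.2 CPM with PBS (1.30 ± 0.19, adjusted p = 0.0381). Uhrf1, which guides that enzyme to newly copied DNA, had 13.2 and 13.5 CPM with MHE, against 4.84 and 4.33 CPM with PBS (1.54 ± 0.25, adjusted p = 0.043). In all of these the groups lay well apart. Msh6, of mismatch repair, had 48.2 and 50.4 CPM with MHE, against 24.1 and 23.0 CPM with PBS (1.07 ± 0.18, adjusted p = 0.0455). All 4 rose, and with either PBS library left out their log2 fold changes lay between 1.04 and 2.03. None passed when either MHE library was left out, nor did any other gene, so this does not set them apart.

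Of 56 further G2/M genes tested, 2 passed higher and none lower by edgeR (7 and 3 at an unadjusted p under 0.05, where 16.7% and 11.8% of all genes were), with a median log2 fold change of 0.65. DESeq2 called 4 higher and 2 lower, and limma-voom 2 higher and 1 lower, where they called 19.3% and 7% of all genes in either direction. Cdc25b, the phosphatase that activates CDK1, had 26.8 and 31.5 CPM with MHE, against 9.35 and 7.03 CPM with PBS (1.83 ± 0.25, adjusted p = 0.0335). Smc4, a condensin subunit, had 75.4 and 103 CPM with MHE, against 28.4 and 26.4 CPM with PBS (1.70 ± 0.24, adjusted p = 0.0337). With either PBS library left out, the log2 fold changes of both lay between 1.65 and 2.03. Neither passed when either MHE library was left out, nor did any other gene. Spc25, a kinetochore gene, went the other way, with 3.16 and 2.84 CPM with MHE, against 8.74 and 9.12 CPM with PBS (-1.57 ± 0.30, adjusted p = 0.0529), and Ncapd2, another condensin gene, had 0.90 ± 0.22 (adjusted p = 0.0814).

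Cell type markers differed between the groups beside these genes. Markers of B cells took 0.244% and 0.190% of counts with MHE, against 0.0123% and 0.00091% with PBS, and those of T cells 0.108% and 0.0796% with MHE, against 0.0047% and 0.00241% with PBS. Of these, 4 of 12 B cell and 11 of 11 T cell markers passed higher, none was at 0 in any library, and PBS replicate 1 exceeded PBS replicate 2 in both lists. Germinal centre B cell markers, of cells that divide fast, took 0.0135% and 0.0168% with MHE, against 0.0112% and 0.0147% with PBS, with none of 6 tested passing in either direction by edgeR (1 higher at an unadjusted p under 0.05; 1 higher by DESeq2 and none by limma-voom). Of them Gcsam had 291 and 279 counts in MHE replicates 1 and 2, against 64 and 9 in PBS replicates 1 and 2. Rgs13 and Mef2b, chosen after their values were seen, had 8 and 45, and 6 and 38, in the MHE libraries, against 4 and 0, and 2 and 3, in the PBS libraries. Gcnt3 of that list was at 0 throughout.

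Macrophage markers took 0.270% and 0.319% of counts with MHE, against 0.404% and 0.161% with PBS, adipocyte progenitor markers 0.132% and 0.331% with MHE, against 0.256% and 0.237% with PBS, and endothelial markers 0.119% and 0.120% with MHE, against 0.126% and 0.203% with PBS. Adipocyte markers took 2.69% and 1.87% with MHE, against 2.77% and 3.51% with PBS, and none of these markers was at 0, although the label is SVF. Plasma cell markers took 0.0423% and 0.0574% with MHE, against 0.0469% and 0.0218% with PBS, lymph node stroma markers 0.0870% and 0.0501% with MHE, against 0.0143% and 0.00128% with PBS, and erythroid markers 0.930% and 0.197% with MHE, against 0.423% and 0.498% with PBS. Smooth muscle and pericyte markers took 0.0517% and 0.0858% with MHE, against 0.279% and 0.286% with PBS, and epithelial markers at most 0.000681% with MHE, against 0.0134% in PBS replicate 1 and 0.000183% in PBS replicate 2. The part of these cell types in the levels of replication and mitosis genes was not tested.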

How the data were processed

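For each library the authors deposited 1 table without a header that pairs 26214 gene symbols with raw, whole-number counts of reads. The submitters' processing notes name TopHat2, edgeR, limma and build mm10. How reads were counted, with which annotation and whether by strand, is not given in the sources used here. Per the labels' protocols, total RNA was extracted with Trizol and libraries were made in triplicate for each treatment, and 2 per group were analysed here.

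In R 4.3.3 with edgeR 4.0.16, genes were filtered with filterByExpr (at least 10 counts, 15 in total), scaled with TMM, and tested between groups by the robust quasi-likelihood F test. P-values were adjusted by Benjamini-Hochberg over 16196 genes, with a threshold of 0.05. CPM is per TMM-scaled total, so 1 CPM stands for 27.7 to 33.2 counts. The SE was obtained by dividing the absolute log2 fold change by the root of F. Per-library log2 CPM used a prior count of 2. Exact Clopper-Pearson 95% intervals cover counting error only: the G2/M members' share of counts was 0.0208% to 0.0219% and 0.0277% to 0.0289% with MHE, against 0.0176% to 0.0186% and 0.0105% to 0.0112% with PBS. Values per kb use the joined exons of GENCODE M21 basic protein-coding transcripts, and shared exon bases were counted over all its transcripts. Copies are GENCODE transcripts at 95% identity or more over 300 bases. For 6 members such a copy is a pseudogene: Ccnb1, Ccnd3, Cdc6, Mcm7, Pcna and Rrm2. Another 7 members share 10% or more of their exon bases with another gene: Ccne2, Gins2, Ccna2, Ube2c, Kif20a, Prc1 and Ccnd1. Reads of all these members may be partly misassigned, which was not tested. The fit was tested on simulated data.

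Members and lists were chosen with earlier results of these data known, so lists have counts and medians and no test. Named genes are all members, up to 4 of each other list with the smallest p, the 2 of each marker list with the highest mean CPM, and exceptions said to be so. Promoters printed are the 2 of each phase with the highest mean CPM that hold the motif, leaving out windows with an annotated exon, a condition added after the data were seen. Other settings were RLE scaling (median of ratios), unscaled library totals, DESeq2 1.42.0, limma-voom (limma 3.58.1), no filter, a filter at 1 CPM in 2 libraries with 50 counts in all, a replicate block, and leaving out 1 library at a time, where the lone library is assumed to vary like the other group. Every pair of libraries differed beyond sampling noise. With 2 libraries a group, the smallest two-sided p of an exact permutation test is 0.333. The counts of 1 listed marker are not reported here.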

Additional observations from a re-analysis of the deposited data

How the results depend on the processing

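Over all genes, 799 passed, against 2951 with DESeq2 and 0 to 2750 when 1 library was left out. Of the members 2 passed, against 1 with library totals alone (Mcm4), 10 with DESeq2 (where 19.3% of all genes passed) and 0 to 17 with 1 library left out. Further S phase genes passed 4 times, against 9 with DESeq2 and 0 to 8 with 1 library left out, and further G2/M genes 2 times, against 6 with DESeq2 and 0 to 6. The median log2 fold change lay between 0.49 and 0.96 for S phase and between 0.26 and 0.97 for G2/M members with 1 library left out. G2/M minus S phase lay between -0.33 and 0.15, and was 0 without PBS replicate 1. The cause was not tested. Library totals alone moved the median of all genes to 0.14, against -0.02.

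With the replicate number as a block, 2 members passed (E2f2 and Mcm4), E2f1 had a log2 fold change of -1.33 (adjusted p = 0.0509), E2f2 had 2.56 (adjusted p = 0.0409), and 2 further S phase genes passed, with Uhrf1 (adjusted p = 0.0598) and Msh6 (0.0524) no longer past the threshold. Deviations of same-numbered libraries correlated at 0.12 over tested genes, but 2 pairs of shared numbers do not show a pairing.

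Some members changed sign when 1 library was left out, in log2 fold change: Ccne1 -0.12 to 0.47, Ccne2 -0.20 to 0.37, Pola1 -0.06 to 0.46, Pcna -0.03 to 0.86, Tyms -0.02 to 0.43, Ccnb2 -0.30 to 1.16, Cdk1 -0.55 to 0.09, Birc5 -0.18 to 0.52, Bub1 -0.35 to 1.93, Ube2c -0.19 to 0.83, Cenpf -0.01 to 0.61, Tpx2 -0.21 to 0.66, Nusap1 -0.14 to 0.51, Ccnd2 -0.01 to 0.16 and Ccnd3 -0.18 to 0.34. Low members rest on few reads: Bub1 had 20 counts in PBS replicate 2.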
